A study of Homo sapiens with 12 samples.

Results

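The 10 genes described here define plasma cells and their malignant counterpart, myeloma cells: the transcription regulators IRF4, PRDM1, XBP1, POU2AF1 and MYC, the surface markers SDC1, CD38, TNFRSF17 and SLAMF7, and the secreted protein JCHAIN. They were taken as a given list, with every probe set, the unit of measurement on these arrays, that the platform annotation assigns to them. This gave 19 of the 54613 probe sets other than controls, and 10 of 19775 annotated genes. The arrays were Affymetrix U133 Plus 2.0 arrays of H929 cells, a human myeloma cell line. Cells were exposed for 24 hours to both compounds together (the combination), to 250 nM CHR-3996, an inhibitor of histone deacetylases, to 1 µM tosedostat (CHR2797), an inhibitor of aminopeptidases, or were left untreated, and each of the 4 groups holds 3 arrays. The labels call the 3 samples of a group biological replicates without naming their cultures, and the p-values therefore describe the spread among these particular samples, which may be technical. H929 is 1 line, with no normal plasma cell beside it.

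A plasma cell forms when the B cell program is shut off and the antibody factory is switched on. IRF4 and BLIMP1, the protein of PRDM1, drive this step, BLIMP1 represses B cell genes such as PAX5 and BCL6, and BCL6 in turn represses PRDM1. XBP1 enlarges the secretory apparatus, POU2AF1 (OCA-B) is a coactivator of octamer-binding factors at immunoglobulin genes, and myeloma cells depend on IRF4 and on its target MYC. The surface proteins SDC1 (CD138), CD38, TNFRSF17 (BCMA) and SLAMF7 identify plasma cells, and the last 3 are targets of myeloma therapies.

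After 24 hours the surface marker genes SDC1 and TNFRSF17 were 3.96-fold and 3.12-fold lower in combination cells than in untreated cells, and 3.54-fold and 3.33-fold lower in CHR-3996 cells. MYC fell by less, and its calls were lost when certain single arrays were left out. CD38 was 1.75-fold higher in combination cells. By the brightest probe set, the change of IRF4, PRDM1, POU2AF1 and SLAMF7 did not pass the test in any comparison with untreated cells. Tosedostat alone moved none of the 10 genes past the threshold.

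The values are log2 expression values as deposited. Probe sets that exceeded the 40th percentile on 3 or more arrays were tested, which holds for 18 of the 19 and for 36395 in all. The IRF4 probe set 216987_at did not reach that level on any array, with values of 0.98 to 3.27. limma was fitted to the 12 arrays, a call is a Benjamini-Hochberg adjusted p under 0.05 over the 36395 probe sets, and a gene is read by its brightest tested probe set, which gives 15587 genes. The 3 comparisons with untreated cells share the untreated arrays. Replicate arrays correlated at r of 0.978 to 0.983. Array medians were 5.26 to 5.3 on combination arrays, 5.24 to 5.29 on CHR-3996 arrays, 5.04 to 5.06 on tosedostat arrays and 5.0 to 5.06 on untreated arrays. The 3′ to 5′ difference of β-actin, a sign of RNA quality, was 1.24 ± 0.15 in the combination, 1.59 ± 0.17 under CHR-3996, 2.09 ± 0.11 under tosedostat and 2.14 ± 0.17 in untreated cells (log2, SD, n = 3), so it moved with the groups, and its part in the results was not tested. For GAPDH it was 0.35 ± 0.09 in the combination, 0.45 ± 0.06 under CHR-3996, 0.43 ± 0.08 under tosedostat and 0.44 ± 0.06 in untreated cells.

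The plasma cell label was checked against markers. All 10 plasma cell markers, 9 of them members, lay above the 40th percentile on all 12 arrays. Their summed linear level was 38457 to 39215 on combination arrays, 29720 to 43062 on CHR-3996 arrays, 56920 to 61019 on tosedostat arrays and 55834 to 57828 on untreated arrays. Some markers listed for other cell types were above it on no array. These were CD3D and CD3G of T cells, NKG7 of NK cells, CD14 and S100A9 of monocytes and ALAS2 of erythroid cells. COL1A2, COL3A1 and PDGFRB of stromal cells and CD22 of mature B cells were also above it on no array. Others of the same lists were above it on 3 or more arrays. They were CD3E, CD2, CD5 and CD7 of T cells (4 of 6) and NCR1, KLRD1, KLRF1 and GNLY of NK cells (4 of 5). LYZ, CSF1R, FCGR1A and S100A8 of monocytes (4 of 6) and HBB and AHSP of erythroid cells (2 of 3 annotated) were among them. So were COL1A1 and DCN of stromal cells (2 of 6) and PAX5, MS4A1 and SPIB of mature B cells (3 of 4). The summed level of the 6 monocyte markers was 254 to 320 in the combination, 208 to 268 under CHR-3996, 160 to 171 under tosedostat and 123 to 154 in untreated cells. For the 4 annotated markers of mature B cells it was 146 to 313 in the combination, 143 to 300 under CHR-3996, 102 to 126 under tosedostat and 107 to 129 in untreated cells. The summed level of the erythroid markers was 230 to 470 in the combination, 234 to 406 under CHR-3996, 102 to 156 under tosedostat and 80.8 to 170 in untreated cells, so these 3 sums were higher on arrays with CHR-3996. For T cell markers the sum was 202 to 231 in the combination, 181 to 221 under CHR-3996, 158 to 188 under tosedostat and 163 to 180 in untreated cells. The sums of NK cell markers (70.0 to 143 over all arrays with CHR-3996 and 107 to 132 over the others) and of stromal markers (220 to 271 and 244 to 311) overlapped. The part of these markers in the results was not tested. In RNA from whole cultures, fewer cells with a marker and less of its RNA per cell cannot be told apart.

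By the brightest probe set, CHR-3996 lowered 5 of the 10 genes (XBP1, MYC, SDC1, TNFRSF17 and JCHAIN) and raised 0, where 18% of all 15587 genes were lower and 31.7% higher. The combination lowered 4 of 10 (MYC, SDC1, TNFRSF17 and JCHAIN) and raised CD38, where 15.9% of all genes were lower and 34.6% higher. Tosedostat alone gave 0 calls among the 10, against 4.25% of all genes higher and 0.545% lower, and 1 of the 10, CD38, had an unadjusted p under 0.05. The median log2 fold change of the 10 genes was −0.25 in the combination, −0.35 under CHR-3996 and 0.09 under tosedostat, beside 0.15, 0.11 and 0.04 over all genes. Of the 18 probe sets, 7 were lower and 2 higher in the combination (14.1% and 32% of all probe sets), 7 were lower and 1 higher under CHR-3996 (15.7% and 29.4%), and 0 were called under tosedostat (3.68% in either direction). The 1 higher under CHR-3996, POU2AF1 1569675_at, is also 1 of the 2 in the combination. It was tested only because of the arrays with CHR-3996.

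**Figure D1:**
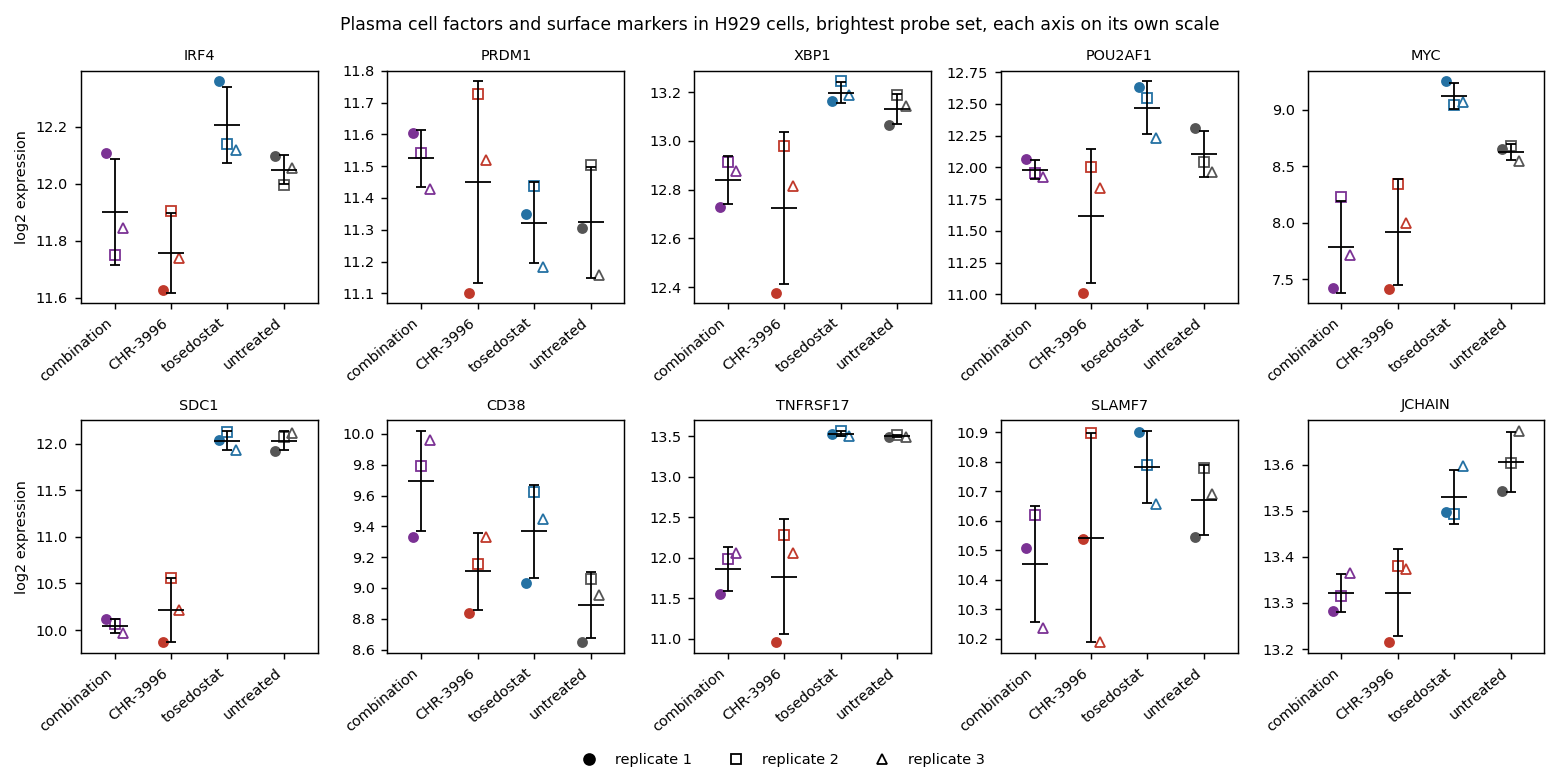
Log2 expression of the 10 genes by their brightest probe set in combination, CHR-3996, tosedostat and untreated cells, with 1 point for each array (the symbol gives the replicate number) and the group mean ± SD, each panel on its own axis. SDC1, TNFRSF17 and MYC lie lower on all 6 arrays with CHR-3996, alone or combined, than on the other 6, and CHR-3996 replicate 1 is the lowest array of its group for 9 of the 10 genes.

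An array of the CHR-3996 group weighs on these counts. Replicate 1 was the lowest of its group for 9 of the 10 genes, and for 56.9% of all genes. The median difference of this array from the other 2 of its group was −0.52 over the 10 genes and −0.16 over all genes. CHR-3996 replicate 2 was the highest of the group for 9 of the 10. Without CHR-3996 replicate 1, 2 of the 10 genes stayed called against untreated cells, SDC1 and TNFRSF17. Of the others, XBP1 then had a change of −0.23 (limma, adjusted p = 0.110), MYC −0.46 (0.115) and JCHAIN −0.23 (0.0820).

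Promoter sequences are shown for SDC1, XBP1 and JCHAIN, which were lower under CHR-3996, and for CD38, which was higher in the combination, since they differ widely in base composition. They are RefSeq sequences of build GRCh38.p14 that run from 250 bases before to 50 bases after the gene start, 5′ to 3′ on the strand of the gene, with CpG dinucleotides in capitals. Promoter sequences of 6 of the 10 genes matched in the table used here.
SDC1 (chr2:20225426-20225725, minus strand): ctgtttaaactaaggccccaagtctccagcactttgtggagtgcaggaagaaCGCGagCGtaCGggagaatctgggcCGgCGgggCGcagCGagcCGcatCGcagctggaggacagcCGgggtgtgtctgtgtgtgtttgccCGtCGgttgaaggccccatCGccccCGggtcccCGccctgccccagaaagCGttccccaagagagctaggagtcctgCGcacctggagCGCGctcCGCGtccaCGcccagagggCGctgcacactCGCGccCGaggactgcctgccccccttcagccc
XBP1 (chr22:28800520-28800819, minus strand): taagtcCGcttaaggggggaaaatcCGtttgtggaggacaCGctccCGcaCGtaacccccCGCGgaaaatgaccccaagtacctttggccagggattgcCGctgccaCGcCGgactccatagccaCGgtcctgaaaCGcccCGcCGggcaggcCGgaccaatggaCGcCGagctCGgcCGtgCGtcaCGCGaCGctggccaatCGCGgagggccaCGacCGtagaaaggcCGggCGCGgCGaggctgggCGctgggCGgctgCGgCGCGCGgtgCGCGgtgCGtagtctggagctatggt
JCHAIN (chr4:70666459-70666758, minus strand): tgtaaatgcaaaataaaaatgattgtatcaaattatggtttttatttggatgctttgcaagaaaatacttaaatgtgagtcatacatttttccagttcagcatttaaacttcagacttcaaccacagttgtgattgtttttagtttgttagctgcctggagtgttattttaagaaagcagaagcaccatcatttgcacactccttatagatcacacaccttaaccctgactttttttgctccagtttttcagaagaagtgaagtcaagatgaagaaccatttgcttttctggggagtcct
CD38 (chr4:15778078-15778377, plus strand): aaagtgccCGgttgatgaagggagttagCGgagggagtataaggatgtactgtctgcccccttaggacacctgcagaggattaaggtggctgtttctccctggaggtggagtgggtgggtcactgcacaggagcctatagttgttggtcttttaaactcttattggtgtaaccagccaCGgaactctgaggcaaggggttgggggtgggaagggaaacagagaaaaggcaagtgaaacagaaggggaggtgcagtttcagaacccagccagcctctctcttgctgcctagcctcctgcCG

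The promoter of SDC1 holds 27 CpG dinucleotides and that of XBP1 40, whereas CD38 holds 4 and JCHAIN 0, beside a median of 14 over 27305 promoters of the same length. G and C make up 67.7% of the bases for SDC1, 68.7% for XBP1, 54% for CD38 and 34.3% for JCHAIN, beside a median of 58.3%. IRF4 has 32 CpG dinucleotides and PRDM1 14. Genes that fell under CHR-3996 had promoters both with many CpG dinucleotides and with none. On both strands, the GC box GGGCGG was found 4 times for IRF4 and once each for SDC1 and XBP1, and 44.6% of all promoters hold it. The TATA box TATAAA was found for IRF4 alone of the 6, 32 bases before the start (12% of promoters). The octamer ATGCAAAT (1.80% of promoters), the E-box CACGTG (7.43%), the IRF element (3.65%) and the unfolded protein response element TGACGTGG (0.795%) were in none of the 6 windows, which says only that these letters are not there.

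SDC1 encodes syndecan-1, the heparan sulphate proteoglycan known as CD138 by which plasma cells are sorted. Its probe set 201287_s_at read 10.11, 10.06 and 9.97 in combination cells, 9.87, 10.56 and 10.21 in CHR-3996 cells, 12.04, 12.13 and 11.93 in tosedostat cells and 11.92, 12.07 and 12.11 in untreated cells. Every array with CHR-3996 lay more than 1 log2 unit below every array without it, and tosedostat arrays overlapped untreated ones. The log2 change against untreated cells was −1.99 in the combination (SE 0.16, limma, adjusted p = 2.42e-06), −1.82 under CHR-3996 (adjusted p = 4.59e-06) and −0.00 under tosedostat, with a 95% confidence interval of −0.35 to 0.35. The other probe set of the gene, 201286_at, gave −2.09 in the combination and −1.77 under CHR-3996. Leaving out each of the 12 arrays in turn kept the CHR-3996 change between −1.99 and −1.65.

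TNFRSF17 (BCMA) is the receptor for the survival factors BAFF and APRIL on plasma cells. It read 11.55, 11.99 and 12.06 in combination cells, 10.96, 12.28 and 12.07 in CHR-3996 cells, 13.53, 13.57 and 13.51 in tosedostat cells and 13.49, 13.52 and 13.50 in untreated cells. The untreated arrays spanned 0.03 and the CHR-3996 arrays 1.32, with no overlap between them. The change was −1.64 in the combination (SE 0.28, limma, adjusted p = 0.00059), −1.74 under CHR-3996 (adjusted p = 0.00040) and 0.03 under tosedostat (95% confidence interval −0.59 to 0.65). The lowest CHR-3996 array sets part of the size: without it the change was −1.33 (adjusted p = 8.55e-05).

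CD38, an ectoenzyme that consumes NAD and the target of daratumumab, moved the other way. It read 9.33, 9.79 and 9.96 in combination cells, 8.84, 9.15 and 9.33 in CHR-3996 cells, 9.03, 9.62 and 9.45 in tosedostat cells and 8.65, 9.06 and 8.96 in untreated cells. The combination arrays lay above the untreated ones, each single compound overlapped them, and replicate 1 was the lowest array in all 4 groups. The change was 0.81 in the combination (SE 0.21, limma, adjusted p = 0.0088), 0.22 under CHR-3996 (adjusted p = 0.439) and 0.48 under tosedostat (adjusted p = 0.292, and 0.0332 with the replicate number as a block). The combination exceeded CHR-3996 alone by 0.59 (95% confidence interval 0.12 to 1.05, adjusted p = 0.376) and tosedostat alone by 0.33 (adjusted p = 0.25, and 0.0326 with the block). Under quantile normalization the combination change was 0.54 (adjusted p = 0.0432). By the criteria of the study CD38 was not called in the combination.

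SLAMF7 (CS1), the target of elotuzumab, was called by none of its 3 probe sets in any comparison. The brightest, 222838_at, read 10.51, 10.62 and 10.24 in combination cells, 10.54, 10.90 and 10.19 in CHR-3996 cells, 10.90, 10.79 and 10.66 in tosedostat cells and 10.54, 10.78 and 10.69 in untreated cells. All 3 treated groups overlapped the untreated arrays. The change was −0.22 in the combination (95% confidence interval −0.61 to 0.17), −0.13 under CHR-3996 (−0.52 to 0.26) and 0.11 under tosedostat (−0.28 to 0.50), and a change as large as that of SDC1 with CHR-3996 lies outside the intervals of those groups. The probe set 219159_s_at differed by 0.07 in the combination and 0.69 under CHR-3996 (adjusted p = 0.077), and 234306_s_at differed by −0.09 in the combination and −0.23 under CHR-3996. With equal array medians the brightest probe set was called lower in the combination (−0.46, adjusted p = 0.0492).

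Among the 4 surface markers, SDC1 and TNFRSF17 were thus lower in the combination, CD38 was higher, and SLAMF7 did not pass the test.

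**Figure D2:**
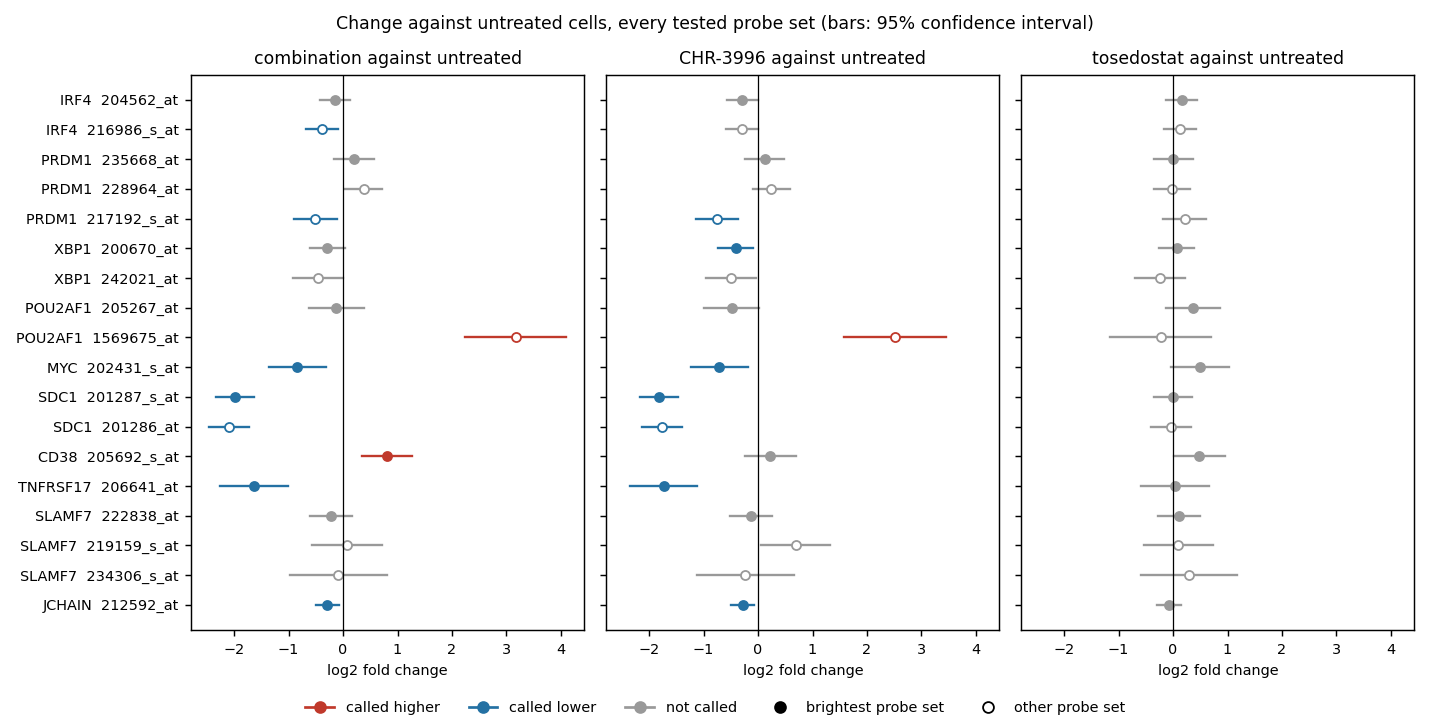
Log2 fold change against untreated cells of the 18 tested probe sets in the combination, under CHR-3996 and under tosedostat, with 95% confidence intervals, filled points for the brightest probe set of a gene, and colours for the call. The 2 SDC1 probe sets and TNFRSF17 lie furthest to the left with CHR-3996, the POU2AF1 probe set 1569675_at lies furthest to the right, and no tosedostat interval belongs to a called probe set.

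Among the transcription regulators, MYC was lower with CHR-3996. It read 7.42, 8.23 and 7.72 in combination cells, 7.41, 8.34 and 8.0 in CHR-3996 cells, 9.25, 9.05 and 9.07 in tosedostat cells and 8.66, 8.68 and 8.55 in untreated cells. The 6 arrays with CHR-3996 lay below the untreated ones, and the tosedostat arrays lay above them. The change was −0.84 in the combination (SE 0.24, limma, adjusted p = 0.0137), −0.71 under CHR-3996 (adjusted p = 0.0310) and 0.49 under tosedostat (adjusted p = 0.347). The combination was 2.52-fold lower than tosedostat alone, with a change of −1.33 (adjusted p = 0.00095). The CHR-3996 call was lost without CHR-3996 replicate 1 or 3 or without any untreated array, with adjusted p from 0.0536 to 0.115, and the combination call was lost without combination replicate 1 (−0.66, adjusted p = 0.057).

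XBP1, the factor that is activated by splicing of its mRNA when secretory load rises, has the most CpG dinucleotides of the promoters printed above. Its bright probe set 200670_at read 12.73, 12.91 and 12.88 in combination cells, 12.38, 12.98 and 12.82 in CHR-3996 cells, 13.16, 13.25 and 13.19 in tosedostat cells and 13.07, 13.19 and 13.14 in untreated cells. The arrays with CHR-3996 lay below the untreated ones with no overlap, and tosedostat overlapped them. The change was −0.29 in the combination (SE 0.15, limma, adjusted p = 0.125) and −0.41 under CHR-3996 (adjusted p = 0.040). With equal array medians both were called, at −0.54 in the combination and −0.63 under CHR-3996. The adjusted p under CHR-3996 was above 0.05 without any 1 of 9 of the 12 arrays, up to 0.110 without CHR-3996 replicate 1. The dim probe set 242021_at, above the 40th percentile on all tosedostat and untreated arrays, 1 combination array and no CHR-3996 array, gave −0.46 and −0.50 without a call.

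IRF4, the factor on which myeloma cells depend, kept a high level on all arrays. It read 12.11, 11.75 and 11.84 in combination cells, 11.63, 11.90 and 11.74 in CHR-3996 cells, 12.36, 12.14 and 12.12 in tosedostat cells and 12.10, 11.996 and 12.05 in untreated cells. CHR-3996 arrays lay below the untreated ones, combination arrays overlapped them and tosedostat arrays lay above. The change was −0.15 in the combination (95% confidence interval −0.43 to 0.13, limma, adjusted p = 0.384), −0.29 under CHR-3996 (adjusted p = 0.0874) and 0.16 under tosedostat (adjusted p = 0.619). The dimmer probe set 216986_s_at gave −0.39 in the combination, with a call (adjusted p = 0.0299), and −0.30 under CHR-3996 without one. With equal array medians the brightest probe set was called in both, at −0.39 in the combination (adjusted p = 0.0253) and −0.51 under CHR-3996 (adjusted p = 0.0067).

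PRDM1 gave different answers by probe set. The brightest, 235668_at, read 11.60, 11.54 and 11.43 in combination cells, 11.10, 11.73 and 11.52 in CHR-3996 cells, 11.35, 11.44 and 11.18 in tosedostat cells and 11.31, 11.50 and 11.16 in untreated cells, and every treated group overlapped the untreated arrays. Its change was 0.20 in the combination (95% confidence interval −0.16 to 0.56), 0.13 under CHR-3996 (−0.23 to 0.48) and −0.00 under tosedostat. The similarly bright 228964_at gave 0.38 in the combination (limma, adjusted p = 0.0643) and 0.24 under CHR-3996. The third, 217192_s_at, read 8.005, 8.47 and 8.07 in combination cells, 7.56, 8.16 and 8.09 in CHR-3996 cells, 8.92, 8.90 and 8.88 in tosedostat cells and 8.68, 8.84 and 8.54 in untreated cells. All 6 arrays with CHR-3996 lay below the untreated ones by this probe set, with a change of −0.51 in the combination (adjusted p = 0.0363) and −0.75 under CHR-3996 (adjusted p = 0.0048). Which transcripts of PRDM1 the probe sets read is not given in the sources used here.

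POU2AF1 differed still more between its probe sets. The bright 205267_at read 12.07, 11.95 and 11.93 in combination cells, 11.01, 11.9998 and 11.84 in CHR-3996 cells, 12.63, 12.55 and 12.23 in tosedostat cells and 12.31, 12.04 and 11.96 in untreated cells, with overlap between each treated group and untreated cells. Its change was −0.12 in the combination (95% confidence interval −0.62 to 0.38) and −0.49 under CHR-3996 (limma, adjusted p = 0.108), where equal array medians gave −0.71 with a call (adjusted p = 0.0224). Without CHR-3996 replicate 1, the lowest array, that change was −0.19 (adjusted p = 0.373), and without replicate 2 it was −0.68 (adjusted p = 0.0365). The dim 1569675_at read 5.75, 5.98 and 5.85 in combination cells, 4.90, 5.48 and 5.26 in CHR-3996 cells, 1.47, 2.85 and 3.07 in tosedostat cells and 3.20, 3.02 and 1.85 in untreated cells. It lay above the 40th percentile on the 6 arrays with CHR-3996 and on no other, so it was tested only because of those arrays. The change was 3.17 in the combination (SE 0.42, adjusted p = 9.86e-05) and 2.52 under CHR-3996 (adjusted p = 0.00052), and its size is uncertain because the untreated level is at the bottom of the scale. What part of POU2AF1 this probe set reads is not given in the sources used here.

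**Figure D3:**
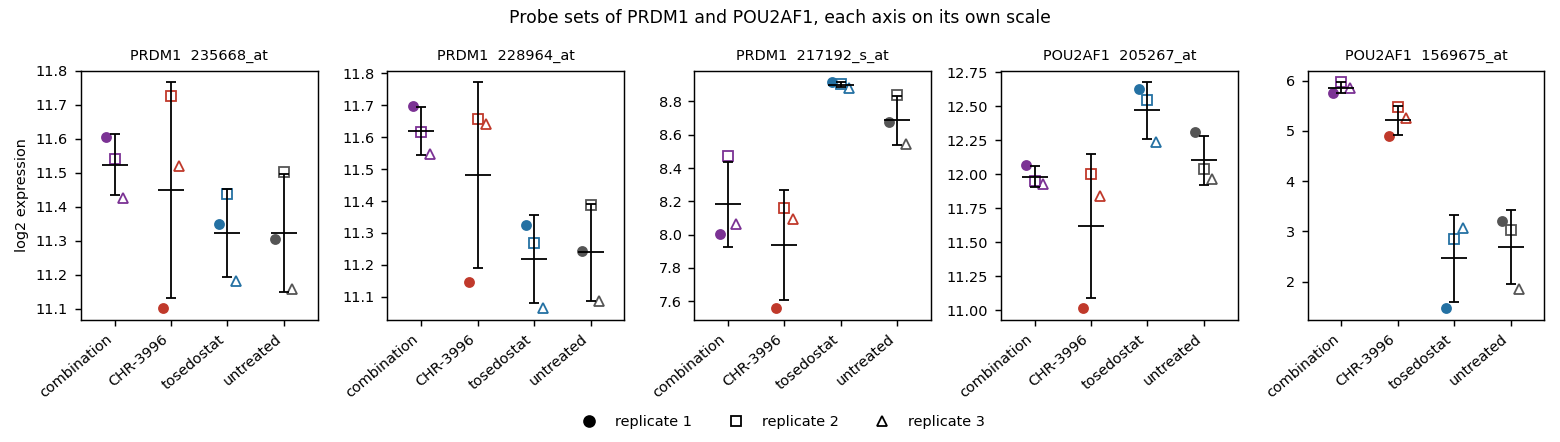
Log2 expression on each array of the 3 probe sets of PRDM1 and the 2 of POU2AF1 in combination, CHR-3996, tosedostat and untreated cells, with group mean ± SD, each panel on its own axis. With CHR-3996 the PRDM1 probe set 217192_s_at is lower while the other 2 are not, and the POU2AF1 probe set 1569675_at is higher while 205267_at is not.

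JCHAIN encodes the joining chain that links IgA and IgM into polymers, and was among the smallest changes that passed the test. It read 13.28, 13.32 and 13.36 in combination cells, 13.21, 13.38 and 13.37 in CHR-3996 cells, 13.50, 13.49 and 13.60 in tosedostat cells and 13.54, 13.60 and 13.67 in untreated cells. The arrays with CHR-3996 did not overlap the untreated ones. The change of this gene, whose promoter printed above has no CpG dinucleotide, was −0.29 in the combination (SE 0.10, limma, adjusted p = 0.0316), −0.28 under CHR-3996 (adjusted p = 0.0333) and −0.08 under tosedostat (95% confidence interval −0.29 to 0.14). Neither call held without untreated replicate 2 or 3, with adjusted p from 0.0676 to 0.102, and the combination call was lost under quantile normalization (−0.21, adjusted p = 0.0509). The CHR-3996 call was also lost without CHR-3996 replicate 1 or 3, and the combination call without any combination array.

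The added effect of each compound was tested directly. Adding tosedostat to CHR-3996 (combination against CHR-3996) gave 0 calls among the 10 genes, where 0.0577% of all genes were called, with 1 of the 10, CD38, at an unadjusted p under 0.05. Adding CHR-3996 to tosedostat (combination against tosedostat) lowered 3 of the 10, MYC, SDC1 and TNFRSF17, where 15.8% of all genes were lower and 30.4% higher. The interaction, the departure of the combination from the sum of the single changes on the log2 scale, was called for 0 of 10 genes (0.276% of all genes), with none at an unadjusted p under 0.05. It was −0.16 for SDC1 (95% confidence interval −0.66 to 0.33), 0.07 for TNFRSF17 (−0.81 to 0.94), −0.62 for MYC (−1.37 to 0.12) and 0.11 for CD38 (−0.55 to 0.77). CHR-3996 against tosedostat, a comparison added after the data were seen to order the levels, was lower for 6 of 10 genes, IRF4, XBP1, POU2AF1, MYC, SDC1 and TNFRSF17, where 19.3% of all genes were lower. In that comparison IRF4 differed by −0.45 (limma, adjusted p = 0.0148) and POU2AF1 by −0.85 (adjusted p = 0.0106).

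The groups were also ordered by their mean levels. For SDC1, TNFRSF17 and MYC the combination and CHR-3996 were the low groups and tosedostat and untreated cells the high ones, and neither pair of neighbours passed the test. For CD38 the order of the means from low to high was untreated, CHR-3996, tosedostat and combination. No pair of these neighbours passed the test without the block, and with it the combination exceeded tosedostat (adjusted p = 0.0326). No call was made for XBP1 and JCHAIN between the combination and CHR-3996, where XBP1 averaged 12.84 in the combination and 12.72 under CHR-3996, and JCHAIN averaged 13.32 in both.

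The likeness between members over the 12 arrays is a description, since the arrays fall into groups and share the CHR-3996 arrays. SDC1 and TNFRSF17 correlated at r = 0.96, XBP1 and TNFRSF17 at 0.95 and TNFRSF17 and JCHAIN at 0.94, and after the group means were taken out at 0.74, 0.97 and 0.73. CD38 and SDC1 correlated at −0.36, and at 0.29 after the group means were taken out. Of all genes tested, the most alike to SDC1 were FKBP4, NUDT19 and MCRIP2 (r = 0.994 to 0.995), and to TNFRSF17 they were CCDC43, AEN and MRPL58 (0.994 to 0.997). The most alike to MYC were ZNF232-AS1, SLC43A1 and VPS13B (0.97 to 0.98), to CD38 EDEM2, METTL6 and HSDL1 (0.92 to 0.96), to XBP1 EIF3D, LYRM4 and MGMT (0.98 to 0.99) and to JCHAIN COIL, YEATS4 and SELENOI (0.98). For IRF4 they were FASTK, UQCC4 and OGFOD1 (0.94 to 0.96), for PRDM1 PPP1CB, GNG5 and TOX2 (0.92 to 0.95), for POU2AF1 NDUFAF2, UQCC4 and CCDC25 (0.94) and for SLAMF7 RPL23A, GBE1 and NPPA (0.89 to 0.92).

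Around the members, 6 gene lists were read by the same fit, beside the shares of all genes called given above. Rescaling moved such shares too. With equal array medians 23.4% of all probe sets were higher and 24.5% lower in the combination, and 22.1% and 24.7% under CHR-3996. With quantile normalization 23.6% were higher and 27.1% lower in the combination, and 23.6% and 25.9% under CHR-3996. Of 21 B cell program genes that plasma cells hold down, 15 were tested. In the combination 5 rose and 0 fell (median 0.30), under CHR-3996 6 rose and 0 fell (median 0.42), and under tosedostat 1, ID3, fell. The share that rose in the combination, 5 of 15, was near the 34.6% of all genes higher there. Under CHR-3996, 6 of 15 rose where 31.7% of all genes were higher. BCL6, the repressor of PRDM1 in germinal centre B cells, read 8.58, 8.66 and 8.47 in combination cells, 8.25, 8.70 and 8.50 in CHR-3996 cells, 4.42, 4.23 and 4.08 in tosedostat cells and 4.01, 3.62 and 3.39 in untreated cells. Its 6 arrays with CHR-3996 lay far above the other 6, with a change of 4.89 in the combination (SE 0.17, limma, adjusted p = 2.74e-08) and 4.80 under CHR-3996, of uncertain size because its single probe set was below the 40th percentile on all untreated arrays and was tested through the arrays with CHR-3996. EBF1, an early B cell factor, rose by 3.6 in the combination and 3.86 under CHR-3996, and 3 of its 4 tested probe sets were called higher, but the brightest exceeded the 40th percentile on 1 tosedostat and 1 untreated array and so was also tested only through the arrays with CHR-3996. Without BCL6 and EBF1, the genes called higher number 3 in the combination and 4 under CHR-3996, and neither count is above the share of all genes called higher. ID3, an inhibitor of E proteins, rose by 1.5 in the combination and 1.55 under CHR-3996 and fell by 1.00 under tosedostat (adjusted p = 0.0122), though its interaction was not called (adjusted p = 0.204). The other 2 called in the combination, BACH2 (2.59) and PAX5 (1.54), are named after their values were seen. Under equal array medians or quantile normalization, CHR-3996 raised 5 and lowered 2 of the listed genes, and in the combination quantile normalization gave 4 higher and 3 lower.

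**Figure D4:**
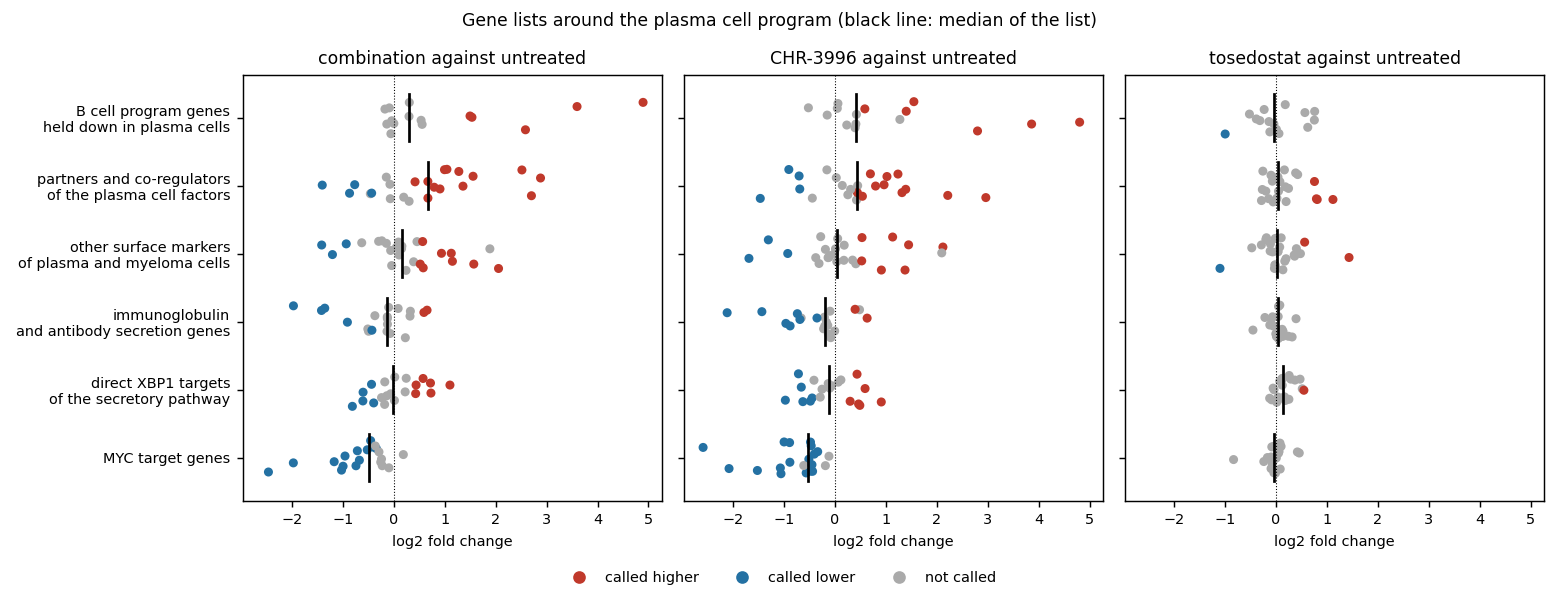
Log2 fold change against untreated cells of every tested gene of 6 lists in the combination, under CHR-3996 and under tosedostat, with 1 point a gene, colours for the call and a black line at the median of the list. MYC target genes lie to the left with CHR-3996, B cell program genes reach furthest to the right, and the tosedostat panel holds few calls.

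Most tested MYC targets were lower with CHR-3996, and the part of MYC in this was not tested. Of 24 listed, 20 were tested, and 13 fell and 0 rose in the combination (median −0.49), 17 fell and 0 rose under CHR-3996 (median −0.54), and 0 were called under tosedostat (median −0.04), where MYC differed by 0.49 without a call. Among all genes, 15.9% were lower in the combination and 18% under CHR-3996. Without CHR-3996 replicate 1, 15 of the 20 were lower under CHR-3996, while the call of MYC was lost. The list was chosen with earlier results of these data known. SRM, spermidine synthase, read 9.66, 9.50 and 9.63 in combination cells, 9.20, 9.63 and 9.58 in CHR-3996 cells, 12.17, 12.10 and 11.88 in tosedostat cells and 12.10, 12.14 and 11.93 in untreated cells. The groups with CHR-3996 lay more than 2 log2 units below the others, with a change of −2.46 in the combination (SE 0.14, limma, adjusted p = 3.01e-07) and −2.59 under CHR-3996. CAD, the enzyme that starts pyrimidine synthesis, fell by 1.97 in the combination and 2.08 under CHR-3996. Against tosedostat alone, 11 of the 20 were lower and 1 higher in the combination.

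**Figure D5:**
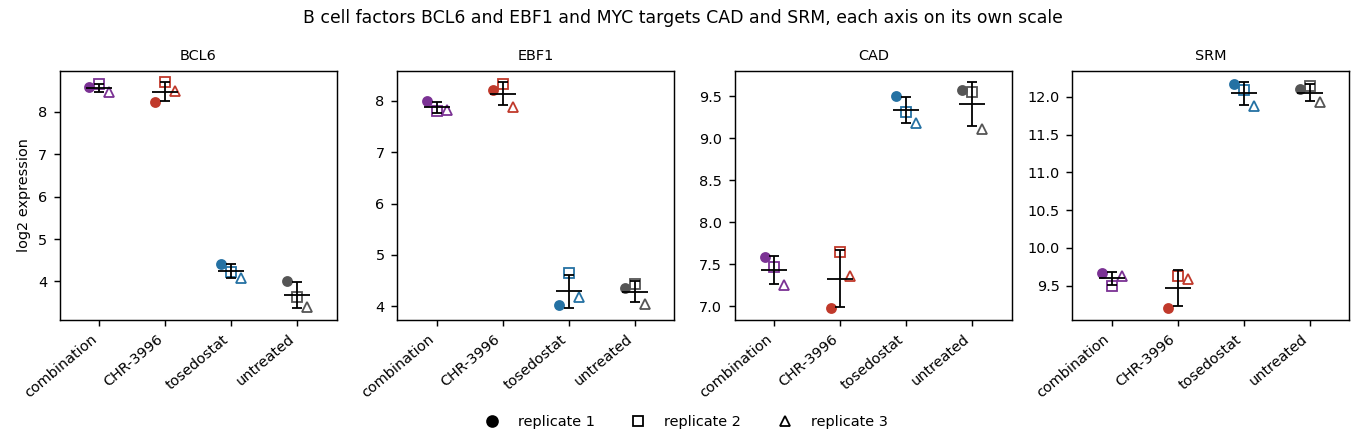
Log2 expression on each array of the B cell factors BCL6 and EBF1 and the MYC targets CAD and SRM in combination, CHR-3996, tosedostat and untreated cells, with group mean ± SD, each panel on its own axis. BCL6 and EBF1 are near 8 with CHR-3996 and near 4 without it, and CAD and SRM are lower on all 6 arrays with CHR-3996.

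Among genes of the secretory apparatus, the counts depended on the scaling. Of 20 tested of 22 direct XBP1 targets, 6 rose and 5 fell in the combination (median −0.02), 6 rose and 6 fell under CHR-3996 (median −0.12), and 1, HERPUD1 of the ER-associated degradation machinery, rose under tosedostat (0.55, limma, adjusted p = 0.0141). Only 1 of the 2 HERPUD1 probe sets was called under tosedostat. The share of the list that rose, 6 of 20, was near the 34.6% of all genes higher in the combination and the 31.7% under CHR-3996. The shares of all genes that were lower were 15.9% and 18%. The risers included GOLGB1, a giant Golgi protein (1.10 in the combination and 0.91 under CHR-3996). SEC31A of the COPII coat rose by 0.59 under CHR-3996, and its 2 probe sets were higher in the combination (0.72 to 0.98). SRP54 of the signal recognition particle rose by 0.73 in the combination and 0.49 under CHR-3996. SRPRB, the receptor subunit for that particle, fell by 0.81 in the combination and 0.97 under CHR-3996, and SEC61A1, the translocon channel, by 0.61 and 0.72. Under equal array medians the counts became 3 higher and 9 lower in the combination and 1 higher and 11 lower under CHR-3996. With that scaling 24.5% of all probe sets were lower in the combination and 24.7% under CHR-3996.

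Of 20 tested of 23 immunoglobulin and antibody secretion genes, 2 rose and 5 fell in the combination (median −0.13), 2 rose and 7 fell under CHR-3996 (median −0.20) and 0 were called under tosedostat. Among all genes, 34.6% were higher and 15.9% lower in the combination, and 31.7% and 18% under CHR-3996. IGLC1 fell by 1.97 in the combination and 2.12 under CHR-3996 by its brightest probe set, but 2 of its 6 tested probe sets were called, and since immunoglobulin probe sets share sequence its source is uncertain. FKBP11, a peptidyl-prolyl isomerase of secretory cells, fell by 1.42 in the combination (SE 0.15, limma, adjusted p = 2.07e-05) and 1.43 under CHR-3996, with all 3 probe sets lower. CREB3L2 rose by 0.59 in the combination and 0.63 under CHR-3996. SEL1L rose by 0.40 under CHR-3996 with all 4 probe sets higher, and 3 of the 4 were higher in the combination. IGHG1 differed by 0.65 in the combination, with a call, but its dim probe set exceeded the 40th percentile on 1 tosedostat and 1 untreated array and was tested only through the arrays with CHR-3996, which leaves 1 higher gene in the combination without it. Equal array medians gave 0 higher and 12 lower in the combination and 1 higher and 13 lower under CHR-3996. With that scaling 24.5% of all probe sets were lower in the combination and 24.7% under CHR-3996.

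Of 26 tested of 28 other surface markers, 8 rose and 3 fell in the combination (median 0.16), 7 rose and 3 fell under CHR-3996 (median 0.05), and 2 rose and 1 fell under tosedostat. In the combination these shares were near or below those of all genes, 34.6% higher and 15.9% lower. Under CHR-3996 they were likewise near or below the 31.7% higher and 18% lower. NCAM1 (CD56), often present on myeloma cells, read 11.80, 11.36 and 11.32 in combination cells, 11.56, 11.61 and 11.49 in CHR-3996 cells, 9.07, 9.36 and 9.28 in tosedostat cells and 9.48, 9.53 and 9.30 in untreated cells. It lay higher on all 6 arrays with CHR-3996, with a change of 2.06 in the combination (SE 0.14, limma, adjusted p = 1.09e-06) and 2.12 under CHR-3996. Of its 7 tested probe sets, 5 were called higher in both groups. The 7 ranged from −0.33 to 2.56 in the combination and from −0.04 to 2.54 under CHR-3996. LY9, a relative of SLAMF7, rose by 1.45 under CHR-3996, and its 3 probe sets were also higher in the combination (1.13 to 1.90). CD59, a complement inhibitor, rose by 1.57 in the combination, and its 5 probe sets were also higher under CHR-3996 (1.08 to 3.19). The transcobalamin receptor CD320 fell by 1.42 in the combination and 1.69 under CHR-3996, and the interleukin 6 receptor IL6R by 1.20 and 1.31. Under tosedostat the adhesion molecule ICAM1 rose by 1.43 (limma, adjusted p = 0.0018). By its brightest probe set IL6ST, the signalling partner of IL6R, rose by 1.15 in the combination, 0.91 under CHR-3996 and 0.56 under tosedostat. Of its 5 tested probe sets, 3 were called higher in the combination, 3 under CHR-3996 and 1 under tosedostat. Equal array medians gave 5 higher and 6 lower in the combination and 6 higher and 6 lower under CHR-3996.

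GPRC5D, an orphan receptor and therapy target of myeloma, fell under tosedostat alone among the comparisons with untreated cells. It read 9.22, 9.23 and 9.50 in combination cells, 9.33, 9.75 and 9.83 in CHR-3996 cells, 8.25, 8.07 and 8.05 in tosedostat cells and 9.52, 9.01 and 9.14 in untreated cells. The 3 tosedostat arrays lay below all the others. The change was 0.09 in the combination (limma, adjusted p = 0.704), 0.41 under CHR-3996 (adjusted p = 0.0751) and −1.10 under tosedostat (SE 0.17, adjusted p = 0.0067). The combination exceeded tosedostat alone by 1.19 (adjusted p = 0.00022), while the interaction, 0.78, was not called (adjusted p = 0.283).

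Of 23 tested of 25 partners and co-regulators of the plasma cell factors, 13 rose and 4 fell in the combination (median 0.67), 11 rose and 4 fell under CHR-3996 (median 0.44) and 4 rose under tosedostat. Among all genes, 34.6% were higher and 15.9% lower in the combination, 31.7% and 18% under CHR-3996, and 4.25% were higher under tosedostat. ZBTB20, a zinc finger protein with the BTB domain that BCL6 also has, rose by 2.88 in the combination (SE 0.27, limma, adjusted p = 8.05e-06) and 2.96 under CHR-3996, with all 8 probe sets higher. The size is uncertain, since this probe set exceeded the 40th percentile on 1 untreated and 2 tosedostat arrays. The 8 ranged from 0.70 to 3.70 under CHR-3996. ETS1, which restrains plasma cell formation in mice, rose by 2.70 in the combination, 2.22 under CHR-3996 and 1.12 under tosedostat (limma, adjusted p = 0.0491). Its 2 probe sets were called in the first 2 groups, but 1 of the 2 under tosedostat. By its brightest probe set MXD1, which competes with MYC for MAX, rose by 1.56 in the combination, 1.39 under CHR-3996 and 0.81 under tosedostat. Of its 3 probe sets, 2 were called higher in the combination, 2 under CHR-3996 and 1 under tosedostat. PRDM15 fell by 1.40 in the combination and 1.47 under CHR-3996 by its brightest probe set, with 2 of its 4 called and a range of −1.72 to 1.15 under CHR-3996. ARID3A fell by 0.87 in the combination, and its 2 probe sets were also lower under CHR-3996 (−0.69 to −0.48). MGA fell by 0.90 under CHR-3996 by its brightest probe set, although another of its 3 was higher. In the combination 2 MGA probe sets were lower and 1 higher. KLF2, named after its value was seen, was the 1 gene of the 6 lists called in the combination against CHR-3996 alone (1.55, adjusted p = 0.0469), and with equal array medians no gene of this list was called there. Those medians gave 10 higher and 6 lower in the combination and 9 higher and 6 lower under CHR-3996.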

How the data were processed

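Each of the 12 samples was hybridized to 1 array. According to the methods of the study, the arrays were scanned and normalized in dChip by the authors, and the table they deposited holds log2 expression for 54675 probe sets. Which version, normalization and probe summary of dChip were used is not given in the sources used here.

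Here 62 control probe sets were dropped, the rest were filtered for values over the 40th percentile of their array on 3 or more arrays, and no further scaling was applied. A linear model with 1 term for each group was fitted in limma 3.58.1 (R 4.3.3), which left 8 residual degrees of freedom, and each of 7 contrasts was adjusted by Benjamini and Hochberg. The criteria of the study's methods (fold change, difference and unadjusted p) were an alternative. The others were quantile normalization, equal array medians, other filters, a variance trend, the replicate number as a block, only the compared groups, another choice of probe set, and each array left out in turn. The script was tested on simulated data. Symbols are those of the platform annotation, brought up to date with a RefSeq table, and promoters are from RefSeq. The number of arrays limits the precision.

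The genes named are the 10 members, from each list the 2 highest and 2 lowest called changes in each comparison with untreated cells, and the 3 genes most alike to each member over the arrays. The members were given, and the lists were chosen with earlier results of these data known. The replicate numbers come from the labels. Same-numbered arrays deviated together, with r over 0.1 in all 3 pairs (0.116 to 0.288), except for the combination or CHR-3996 with untreated cells (0.0358 to 0.168). Plots were made in matplotlib 3.10.9 under Python 3.11.15.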

Additional observations from a re-analysis of the deposited data

How the results depend on the processing

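The calls of SDC1 and TNFRSF17 with CHR-3996 held under every alternative run, including each array left out. Of 1300 alternatives of single member values 1226 kept direction and side of the threshold, 38 lost a call, 33 gained one and 3 turned. The 3 are POU2AF1 by the mean of its probe sets, at 1.52 in the combination, 1.02 under CHR-3996 and 1.46 in the combination against tosedostat, by construction since that mean takes in 1569675_at.

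Counts of called members depended more on the settings, and the cause was not tested. Against untreated cells under CHR-3996 (5 of 10) the count was 2 with no filter on low values, 3 with only the compared groups, 2 by the study's criteria and 2 to 6 with an array left out. That count rose with equal array medians, where IRF4 and POU2AF1 were called in addition. In the combination (5 of 10) it was 8 with equal array medians, 2 by the study's criteria and 3 to 6 with an array left out, 3 being without combination replicate 1. In the combination against tosedostat (3 of 10) it was 5 with quantile normalization, 8 with equal medians, 5 with a filter at the 60th percentile, 6 with a variance trend, 5 with only the compared groups, 5 with the mean of probe sets and 3 to 5 with an array left out, 5 being without CHR-3996 replicate 1. With the replicate number as a block the count was 5 there and 1 instead of 0 under tosedostat, which is CD38. In these comparisons the deviations of same-numbered arrays correlated weakly. The r was 0.190 to 0.233 for the combination with tosedostat and 0.126 to 0.288 for tosedostat with untreated cells. The labels do not say what a shared number marks. The block changed no other count by more than 1.5 times.

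Scaling moved the median change of all probe sets in the combination to −0.12 (quantile) and −0.10 (equal medians), against 0.14 as deposited, and under CHR-3996 to −0.10 and −0.11, against 0.11. Of all calls, 46.6% and 48.8% were then higher in the combination, against 69.3% as deposited, and 47.6% and 47.2% under CHR-3996, against 65.1%. With equal medians the change under CHR-3996 was −0.63 for XBP1 and −0.50 for JCHAIN. With 3 arrays a group, a change that was not called is bounded only by its interval.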
